A study of Mus musculus with 3 samples.

Results

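RNA was sequenced from blood stem and progenitor cells of mouse fetal liver, and the comparison described here sets embryos homozygous for a DNMT3B7 transgene against wild-type (WT) embryos. DNMT3B7 is a truncated form of DNMT3B, one of the enzymes that place methyl groups on DNA. The cells were LSK cells, named for the absence of lineage markers and the presence of Sca1 and c-Kit at the surface; blood stem cells and multipotent progenitors fall in this fraction. All embryos were C57Bl/6 and were taken at E14.5. Each genotype gave 1 library of total RNA from cells pooled from 4 to 5 embryos, so there were 3 libraries in all (WT, hemizygous and homozygous), and no genotype had a second library. The promoter that drives the transgene and the number of founder lines were not given in the sources used here. With 1 library for each genotype there is no test between genotypes, and every difference below is one between 2 libraries. In such bulk samples, fewer cells of a type and less RNA per cell cannot be told apart.

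The genes compared were those whose values could be read. They lay at the starts of 10 chromosomes, up to Morc3 on chromosome 16, Rasgrp2 on 19, Agpat5 on 8, Mib1 on 18, Dmtf1 on 5, Car2 on 3, Zmynd11 on 13, Birc3 on 9, Dynlt1f on 17 and Cenpo on 12. The 13 mRNAs of the mitochondrial genome were added, and small RNA genes were left out. This gave 1441 genes of 31488 gene identifiers, 826 of them on chromosome 16. A value below is the deposited FPKM (fragments scaled to transcript length and library depth) divided by a common factor: the deposited 2561320 of Dnmt3a in the WT library became 603. A gene was measured when its value was at least 1 in the WT or the homozygous library, which held for 945 genes, 932 of them nuclear. Of the rest, 494 were under 1 in both libraries and 2 (Gm15725 and Gm17119) had no valid estimate. The label LSK could not be checked on its own markers, since Ly6a (Sca1), Kit, Cd34, Flt3 and Mecom lay outside these segments, at 0 in the WT and at most 0.686 in the homozygous library.

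Surrogate light chain genes encode the stand-in for an immunoglobulin light chain that early B cell progenitors make before their own light chain genes are rearranged. Vpreb1 and Vpreb2 encode its variable-like part and Igll1 (lambda5) its constant-like part, and together with the heavy chain they form the pre-B cell receptor. Their transcription is a mark of commitment to the B lineage and is driven by Ebf1 and E2A, which bind near the gene starts. These genes are known to be silent in mature blood cells, and DNA methylation is one of the layers that control tissue-restricted genes of this kind.

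The bases upstream of Igll1 and Vpreb2 are shown because genes of this receptor were lower together in the homozygous library. The Igll1 stretch is chr16:16863986-16864235 (minus strand) and that of Vpreb2 chr16:17980315-17980427 (plus strand), both from RefSeq on GRCm38.p6, the latter ending where GENCODE M21 places its first exon. Capitals mark matches on either strand to CCCNNGGG (the Ebf1 core), CAGNTG (the E-box bound by E2A) and GAGGAA (the core bound by PU.1).
Igll1: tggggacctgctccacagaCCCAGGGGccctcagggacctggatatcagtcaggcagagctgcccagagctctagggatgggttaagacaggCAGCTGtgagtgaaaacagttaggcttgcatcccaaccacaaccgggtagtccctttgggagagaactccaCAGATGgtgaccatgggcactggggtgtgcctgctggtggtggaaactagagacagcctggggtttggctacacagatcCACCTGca
Vpreb2: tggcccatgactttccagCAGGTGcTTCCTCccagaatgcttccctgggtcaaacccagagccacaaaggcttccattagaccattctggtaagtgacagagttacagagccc
The 250 bases before Igll1 held 1 Ebf1 core and 3 E-boxes. Of 27025 gene windows of that length, 11.7% hold the first motif and 44.5% the second. The 113 bases shown for Vpreb2 held 1 E-box and 1 PU.1 core, which occur in 23.3% and 11.2% of all windows over the same 113 positions. The upstream windows of Vpreb1 and Vpreb2 aligned without gaps over 106 bases, of which 104 were identical (98.1%). Vpreb1's own window overlaps an annotated exon and is not printed. CpG dinucleotides, the target of DNA methyltransferases, were few in the 250-base windows of these genes. There was 1 for Igll1, 2 for Vpreb1 and 0 for Vpreb2, whose window runs into its first exon after 113 bases. Of all gene windows, 29.6% held 2 or fewer, and the median was 6.00. A match is a description of the letters and not a measured site.

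The surrogate light chain genes were lower in the homozygous library. Igll1 had a value of 236 in WT, 190.0 in hemizygous and 95.5 in homozygous cells. Vpreb1 stood at 174, 122 and 57.0 in the same order, and Vpreb2 at 107, 88.3 and 39.7. The homozygous library was the lowest of the 3 for each gene, and the hemizygous library lay between the others. The plain ratio of homozygous to WT was 0.405 for Igll1, with a 95% counting interval of 0.363 to 0.450. It was 0.327 for Vpreb1 (0.255 to 0.420) and 0.370 for Vpreb2 (0.285 to 0.475). These intervals are exact binomial ones on the estimated fragments, for example 1249.7 in WT and 483 in homozygous for Igll1, and cover counting error only. On the log2 scale of value + 1 used for counts of genes, the ratios were -1.30, -1.59 and -1.41. When the libraries were scaled to the same sum of values over the compared genes, mitochondrial mRNAs included, they were -0.74, -1.04 and -0.86. Vpreb1 alone of these genes still passed a 2-fold size there. Some reads cannot be assigned between the Vpreb genes. Of the 50-base stretches of Vpreb1 transcripts 23.6% also occur elsewhere, mainly in Vpreb2, and of those of Vpreb2 32.8%, mainly in Vpreb1, while Igll1 shared none (0.0%). Top3b, which overlaps Vpreb1 on the opposite strand, was at 310.0 in WT and 382 in homozygous cells.

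Other genes of lymphoid cells mostly lay within 1.5-fold. The list of B cell and lymphoid genes, written with results of these data known, had 20 measured members, of which 3 were at least 2-fold lower and 0 at least 2-fold higher. Over all 945 measured genes, 2.22% were at least 2-fold lower and 2.12% at least 2-fold higher, 4.34% in all. The median log2 ratio of the list was -0.07, beside -0.04 for all measured genes. At 1.5-fold the list had 5 lower and 0 higher members, where 7.09% of all genes were lower and 5.19% higher. The additional members past 1.5-fold were Cd200, a ligand that restrains myeloid cells, at 5.78, 3.48 and 2.47 in the WT, hemizygous and homozygous libraries, and Cd96, a receptor of T and NK cells named after its value was seen, at 4.99, 5.90 and 2.74. The counting interval of the plain ratio of Cd200, 0.112 to 1.20, included 1. Ptprcap, the protein that associates with the phosphatase CD45, stood at 1185 in WT and 1113 in homozygous cells. Hcls1, a substrate of antigen receptor signalling, stood at 249 and 245. Gcsam, an adaptor of germinal centre B cells, and St6gal1, both described below, were not on the list. Their log2 ratios were 0.69 and -1.27, so the counts depend on which genes were listed. Of the lymphoid markers, Igll1, Vpreb1, Vpreb2, Btla, Cd86 and Cd80, all 6 were measured and none was at 0. Their summed value was 637 in WT, 495 in hemizygous and 293 in homozygous cells. The costimulatory ligand Cd86 stood at 81.3, 59.9 and 65.3, and the inhibitory receptor Btla at 34.4, 32.3 and 29.2. Cd80, a ligand related to Cd86, stood at 4.46, 2.65 and 6.22, highest in the homozygous library. Most of the difference in the sum lay in the surrogate light chain genes. The part of lymphoid cells in these values was not tested.

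**Figure D1:**
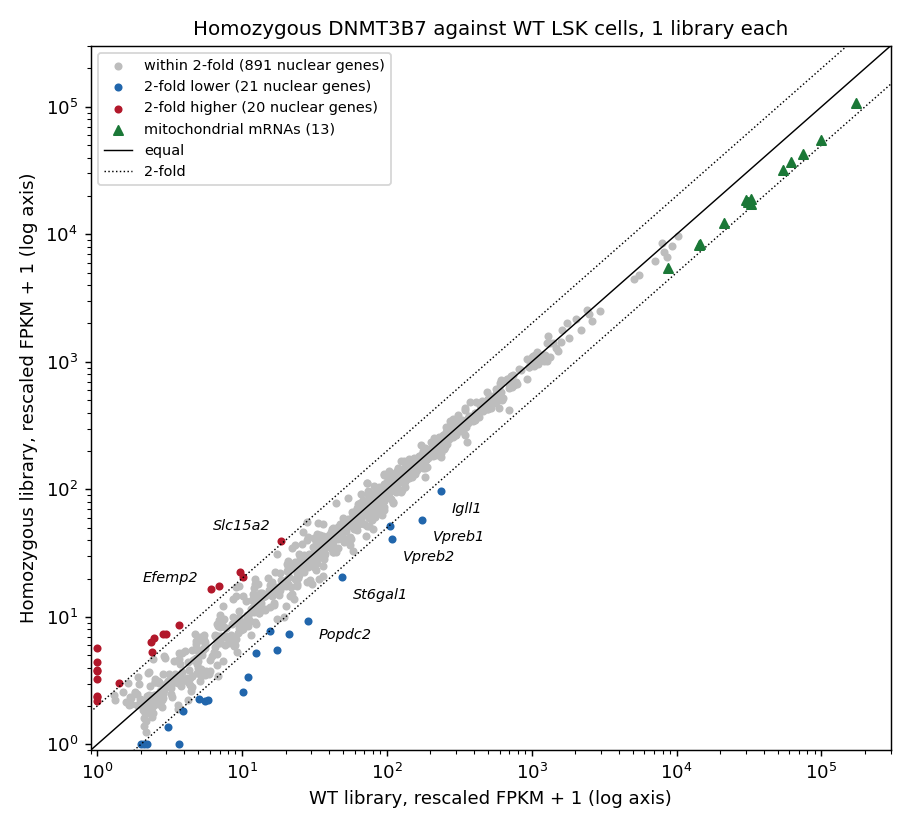
Rescaled FPKM + 1 of the 945 measured genes in the WT library (x, log axis) against the homozygous library (y, log axis); dotted lines mark 2-fold. Blue points are the 21 nuclear genes at least 2-fold lower, red points the 20 at least 2-fold higher and green triangles the 13 mitochondrial mRNAs, which all lie below the line of equality.

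St6gal1, the enzyme that caps glycans with alpha-2,6-linked sialic acid and that is abundant in B cells, was also lower. It was at 48.2 in WT, 36.9 in hemizygous and 19.4 in homozygous cells, a ratio of 0.403 (95% counting interval 0.333 to 0.486). In the list of glycosylation and GPI anchor genes it was the 1 of 13 measured members at least 2-fold lower, and Pigz, described with the higher genes, the 1 at least 2-fold higher. The shares over all measured genes were 2.22% lower and 2.12% higher. B4galt4, a galactosyltransferase, was at 76.6 in WT and 61.1 in homozygous cells, and Pmm2, which makes mannose-1-phosphate, at 156 and 131. Under sum scaling the log2 ratio of St6gal1 was -0.73.

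The remaining named lower genes had modest values. Popdc2, a membrane protein that binds cyclic AMP and is known from heart and skeletal muscle, was at 27.4, 22.7 and 8.31 in the WT, hemizygous and homozygous libraries, a ratio of 0.304 (interval 0.172 to 0.498). In the large subunit of the mitochondrial ribosome, Mrpl39 was at 20.01, 14.1 and 6.29 (0.315, interval 0.199 to 0.478). Rpl39l, a paralog of a ribosomal protein gene, was at 16.4, 8.74 and 4.47 (0.273, interval 0.104 to 0.580). In Popdc2, Mrpl39 and Rpl39l the hemizygous library again lay between the others. Fabp4, a fatty acid carrier of fat cells and macrophages, behaved differently, with 11.4, 11.9 and 4.18 (0.366, interval 0.245 to 0.532). Lmln, a metallopeptidase, was at 14.7, 18.8 and 6.73 (0.457, interval 0.234 to 0.871). For Fabp4 and Lmln the homozygous library alone stood apart, and the hemizygous value was above that of WT. The 4 macrophage markers (Fabp4, Fabp5, Mmp12 and Mmp13) summed to 1359 in WT, 1230.1 in hemizygous and 1415 in homozygous cells, nearly all of it Fabp5, at 1342 in WT and 1404 in homozygous cells. Popdc2 belongs to a list of 40 genes restricted to other tissues, of which 8 were measured. The others in the segments stayed under a value of 1 in both libraries.

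Of the 21 genes at least 2-fold lower, 9 had proper names and a value of at least 5, and these are the genes above. A further 8 were gene models or pseudogenes. The last 4, named after their values were seen, were Car15, Stfa2, Cabp4 and Calm4, all with WT values under 5. The counting interval of the plain ratio excluded 1 for 12 of the 21, and 4 were listed at 0 in one library. That interval, which covers counting error only, excluded 1 for 302 of all 945 measured genes.

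**Figure D2:**
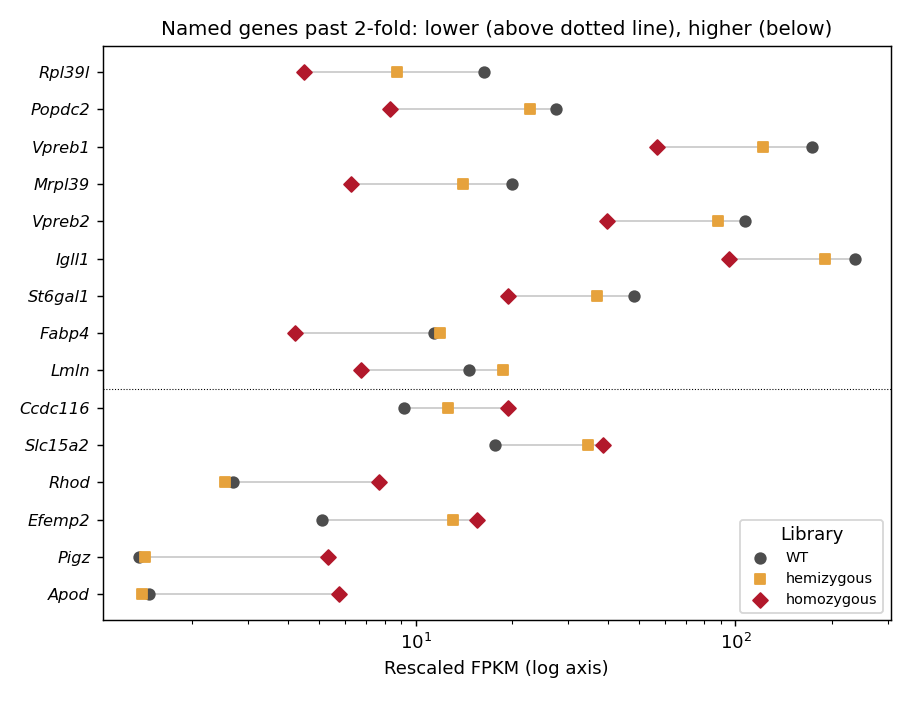
Rescaled FPKM (x, log axis) of the 15 named genes past 2-fold in each of the 3 libraries. Igll1 is at 236 in WT and 95.5 in homozygous cells, and the hemizygous value of most lower genes, Fabp4 and Lmln excepted, lies between the others.

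Genes higher in the homozygous library were low or moderate in level and of mixed function. Slc15a2, a proton-coupled carrier of small peptides, was at 17.7 in WT, 34.7 in hemizygous and 38.5 in homozygous cells, a ratio of 2.17 (95% counting interval 1.54 to 3.12). Efemp2, the matrix protein fibulin-4 that is needed for elastic fibres, was at 5.10, 13.1 and 15.5 (3.03, interval 1.64 to 6.41). In Slc15a2 and Efemp2 both transgenic libraries stood well above WT. Ccdc116, a coiled-coil protein, was at 9.17, 12.6 and 19.4 (2.12, interval 1.58 to 2.87). Rhod, a GTPase that acts on endosome movement and actin, was at 2.68, 2.53 and 7.66 (2.86, interval 1.44 to 6.51). Apod, a lipocalin, was at 1.47, 1.39 and 5.77 on an estimated 2.95 fragments in WT and 11.1 in homozygous cells, and its ratio of 3.93 had an interval of 1.01 to 21.4. Pigz, a mannosyltransferase of GPI anchors, was at 1.36, 1.42 and 5.33, and its interval, 0.562 to 31.8, included 1. In Rhod, Apod and Pigz the homozygous library alone was high. Beside these 6 genes, 13 of the 20 were gene models or pseudogenes, and the last was Tnp2, a sperm chromatin protein named after its value was seen, at 0, 0.677 and 2.25. Of the 20 genes, 8 were listed at 0 in one library, and the interval excluded 1 for 8, beside 302 of all 945 measured genes. Exons of Ccdc116 overlap those of Ydjc on the opposite strand, at 130.2 in WT and 167 in homozygous cells, and exons of Efemp2 those of Mus81, at 133 and 103. Rhod overlaps A930001C03Rik, which is among the gene models called higher, at 0.412 and 2.02. Reads of such pairs cannot be told apart if the counting did not use strand. The genes just inside and just outside the 2-fold size were Ccdc116 at a log2 ratio of 1.00 and Col4a2 at 0.97 on the higher side, and Gm16350 at -1.02 and Cd200 at -0.96 on the lower side.

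The genes short of 2-fold that follow were chosen for counting intervals far from equal expression, so those intervals are not separate support. Cers4, which makes ceramides with long acyl chains, was at 43.2 in WT, 69.6 in hemizygous and 77.1 in homozygous cells, a ratio of 1.79 (1.58 to 2.02). Cdc42bpg, a kinase downstream of Cdc42, was at 32.3, 34.1 and 53.4 (1.65, interval 1.45 to 1.89). Adcy3, an adenylyl cyclase that makes cyclic AMP, was at 21.1, 31.0 and 33.9 (1.60, interval 1.40 to 1.83). Cers4 and Adcy3 were high in both transgenic libraries, Cdc42bpg in the homozygous one alone. Gp5, a glycoprotein of platelets that sits in their von Willebrand factor receptor, was at 16.5, 17.7 and 30.1 (1.83, interval 1.46 to 2.27). Dnase1, which digests extracellular DNA, was at 52.6, 62.9 and 85.0 (1.62, interval 1.31 to 1.99). Gcsam, a signalling adaptor of germinal centre B cells, was at 11.3, 13.2 and 18.8 (1.66, interval 1.31 to 2.15), and Synj2, a phosphoinositide phosphatase, at 7.71, 8.97 and 12.7 (1.64, interval 1.28 to 2.11). An antisense gene that overlaps Dnase1, Gm15879, was at 104 in WT and 50.7 in homozygous cells, and the strand setting of the counting was not given.

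Of the moderately lower genes, the one with the most fragments was Tmem134, a small transmembrane protein, at 697 in WT, 418 in hemizygous and 416 in homozygous cells. Its ratio of 0.597 had a counting interval of 0.556 to 0.640, and both transgenic libraries were low. Rps6kb2, a kinase of the ribosomal protein S6 downstream of mTOR, was at 358, 308 and 236 (0.659, interval 0.608 to 0.715). Of its 50-base stretches, 19.5% are shared, mainly with Ptprcap, which overlaps it on the opposite strand and was much higher in level. Dexi was at 57.8, 41.2 and 32.1 (0.555, interval 0.452 to 0.681). Pygm, the muscle form of glycogen phosphorylase, was at 78.6, 61.5 and 47.6 (0.605, interval 0.516 to 0.706). In Rps6kb2, Dexi and Pygm the hemizygous library lay between the others. Of the 12 genes named in this group, 3 (Carns1, Ctsf and Asb13) had intervals that included 1. Hes1 is described with the transcription factors. Aldh3b1, which oxidises fatty aldehydes, was at 21.8 in WT and 12.9 in homozygous cells (0.594, interval 0.423 to 0.839), and Vps8, a tether of early endosomes, stood in the 3 libraries at 54.8, 40.7 and 35.5 (0.649, interval 0.479 to 0.864). Under sum scaling the log2 ratios of Tmem134, Rps6kb2, Dexi and Pygm were -0.18, -0.04, -0.28 and -0.16.

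**Figure D3:**
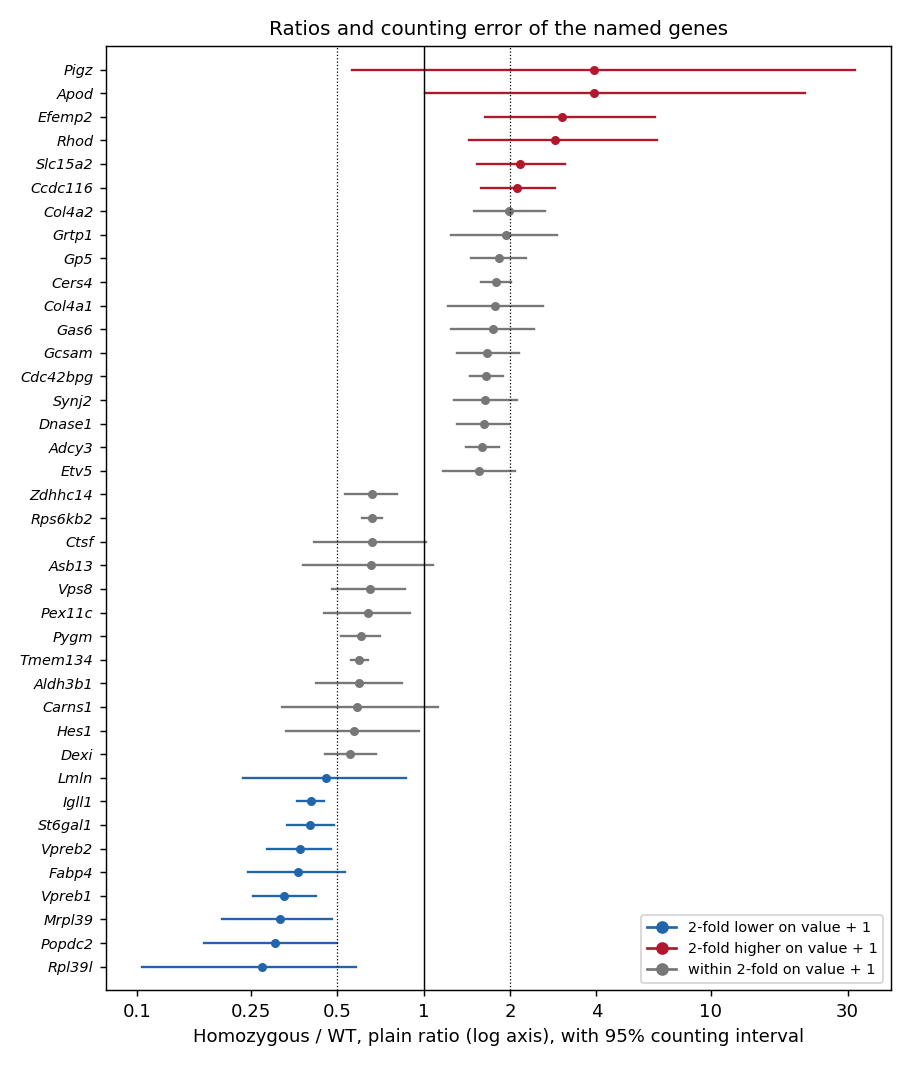
Plain ratio of homozygous to WT values (x, log axis) with the 95% counting interval for the 15 named genes past 2-fold and the 24 named next to them; dotted lines mark 0.5 and 2. The interval of Igll1 runs from 0.363 to 0.450, that of Pigz from 0.562 to 31.8.

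The mitochondrial genome encodes 13 proteins, all of them subunits of the respiratory chain or the ATP synthase, and its mRNAs are cut from long transcripts that span most of the genome. All 13 mRNAs were lower in the homozygous library, by similar amounts. Plain ratios ran from 0.535 to 0.620, and none reached 2-fold. The summed value of the 13 was 648464 in WT, 541172 in hemizygous and 380659.5 in homozygous cells, a ratio of homozygous to WT of 0.587. The nuclear genes of the segments summed to 216433, 209156 and 205835, a ratio of 0.951. The median log2 ratio was -0.79 for the mitochondrial mRNAs and -0.04 for the nuclear genes.

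Among subunits of complex I, mt-Nd3 had the largest difference, with 32524 in WT, 23307 in hemizygous and 17394 in homozygous cells (0.535, interval 0.522 to 0.548). mt-Nd5 had the smallest, with 8729.6, 8355 and 5410.1 (0.620, interval 0.611 to 0.628). mt-Nd6, the single mRNA made from the other strand, was at 14190.2, 12168 and 8213 (0.579, interval 0.565 to 0.593), within the range of the rest. The strand setting of the counting was not given, so RNA of the opposite strand may be counted in mt-Nd6. Of complex IV, mt-Co1 was at 54409.9, 47593 and 32102, mt-Co2 at 61229, 51706 and 37116, and mt-Co3 at 74501, 58762 and 42719. The complex III subunit mt-Cytb was at 32707, 28401 and 18983. Of the ATP synthase, mt-Atp6 was at 99472, 83454 and 54418, and mt-Atp8 at 173774, 142424 and 107363. In each of these genes the homozygous library was lowest and the hemizygous library lay between it and WT. Copies of parts of the mitochondrial genome lie in the nuclear genome. All 635 different 50-base stretches of mt-Co2 also occur in another annotated gene, but none of those of mt-Nd1, mt-Atp8, mt-Nd6 and mt-Cytb (0.0%). The ratios of these last 4 were 0.578, 0.618, 0.579 and 0.580. Only annotated transcripts were searched, so copies elsewhere in the nuclear genome were not counted.

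**Figure D4:**
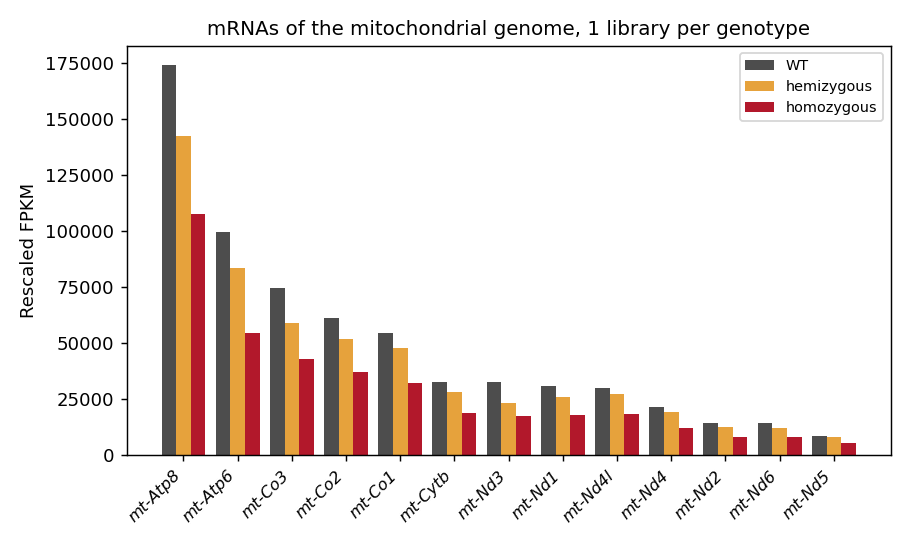
Rescaled FPKM of the 13 mitochondrial mRNAs in the WT, hemizygous and homozygous libraries (1 bar per library, no error bars). The homozygous bar is the lowest for every mRNA, with ratios to WT from 0.535 to 0.620.

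Nuclear genes of mitochondrial proteins did not share this difference. Of 35 measured, 0 were at least 2-fold higher and 1, Mrpl39, was at least 2-fold lower, beside 2.12% and 2.22% of all measured genes. The median log2 ratio of the 35 was -0.04. Ndufv1 and Ndufs8, subunits of complex I, were at 1179.8 and 689 in the WT and at 1128 and 737 in the homozygous library. Atp5j and Atp5o, subunits of the ATP synthase, were at 729 and 575 in the WT and at 711 and 505 in the homozygous library. Trap1, a chaperone of the mitochondrial matrix, was at 712 and 728.

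Because the mitochondrial mRNAs hold most of the summed value of the compared genes, they decide what a common scale on that sum means. The sums cover only the genes of the segments and the mitochondrial mRNAs, so they are not sums over whole libraries. Scaling on the median ratio of nuclear genes moved log2 ratios up by 0.04, and scaling on the nuclear sum by 0.07. Scaling on the sum with mitochondrial mRNAs moved them up by 0.56. Under that last scaling the counts were 61 genes higher (6.46%) and 13 lower (1.38%), 7.83% in all, in place of 20 and 21. That scaling raises every homozygous value, so all 20 higher genes had to stay past 2-fold. Of the 21 lower genes, 13 passed 2-fold there as well. Of the 169 named genes, 59 changed sign under it, against 6 under median-ratio and 12 under nuclear-sum scaling. The mitochondrial median was then -0.23 and that of all measured genes 0.49. The distance between mitochondrial and nuclear genes hardly depends on the scaling, but which of them is nearer to equal does.

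The list of blood transcription and Notch genes had 20 measured members. None of them passed 2-fold, 1 was at least 1.5-fold higher (Etv5) and 2 at least 1.5-fold lower (Hes1 and Hey1), a share near that of all genes (12.3% in either direction), and the median log2 ratio was -0.12. Runx1, needed for blood stem cells to arise, was at 152 in WT, 153 in hemizygous and 132 in homozygous cells (ratio 0.873, interval 0.808 to 0.944). Hes1, a repressor induced by Notch, was at 33.0, 41.5 and 18.9 (0.572, interval 0.332 to 0.960). Hey1, a related Notch target named after its value was seen, was at 2.60, 1.40 and 1.03. Etv5, an Ets factor induced by growth factor signalling, was at 71.9, 84.8 and 112 (1.56, interval 1.17 to 2.08), with 24.5% of its stretches shared, mainly with the gene model Gm4798. Cdk6, a cell cycle kinase that controls the exit of stem cells from quiescence, was at 125, 173 and 165. The corepressor Nrip1 was at 80.2, 119 and 106, and for Cdk6 and Nrip1 both transgenic libraries were above WT. Under sum scaling the log2 ratio of Runx1 turned from -0.19 to 0.36.

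Chromatin genes were nearly level. All 22 measured lay within 1.5-fold, with a median log2 ratio of 0.07. Dnmt3a, the de novo DNA methyltransferase related to Dnmt3b, was at 603 in WT, 698 in hemizygous and 683 in homozygous cells (ratio 1.13, interval 1.05 to 1.21). Asxl2, a Polycomb-associated protein, was at 94.0, 132 and 128, and Kdm2a, a histone demethylase that binds unmethylated CpG, at 272, 343 and 344. These genes were higher in both transgenic libraries by similar amounts. Dnmt3b, of which the transgene product is a form, lay outside the segments and could not be used as a check of the genotype labels.

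All 33 measured genes of DNA replication, repair and the cell cycle lay within 1.5-fold, with a median log2 ratio of -0.04. The lowest was Pold4, a subunit of DNA polymerase delta, at 182 in WT and 123 in homozygous cells. Polq, the polymerase of end joining, was at 72.3 and 50.9. The 22 splicing and RNA-binding genes (median -0.02) and the 25 genes of ubiquitin and the proteasome (median 0.01) also lay within 1.5-fold. Sf1, which recognises the branch point, was at 1741 and 2006, and the proteasome subunit Psmd2 at 617 and 718. Of 15 measured ribosome and translation genes, 1 was at least 2-fold lower, Rpl39l, beside 2.22% of all measured genes. Fau, which encodes a ribosomal protein fused to a ubiquitin-like one, was at 9340.1 and 8107, and the initiation factor Eif4g1 at 1288 and 1589. Under sum scaling the medians of these lists and of the chromatin list lay between 0.49 and 0.63.

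Interferon and inflammation genes had 25 measured members, of which 0 were at least 2-fold higher and 1, Stfa2, was lower, and the median log2 ratio was 0.00. The shares over all measured genes were 2.12% higher and 2.22% lower. Casp1, the protease that matures interleukin-1, was at 82.0 in WT, 73.0 in hemizygous and 60.2 in homozygous cells. Casp4, the related sensor of bacterial lipopolysaccharide, was at 30.2, 47.7 and 40.5, with a counting interval of the ratio to WT, 0.995 to 1.81, that included 1. Ifngr2, a chain of the interferon gamma receptor, was at 110.0, 86.4 and 79.1, lower in both transgenic libraries.

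Metabolic and trafficking lists also held single genes past 2-fold, where 2.12% of all measured genes were higher and 2.22% lower. A count of 1 in lists this short is not read as a result about the list. Of 26 lysosome and endosome genes, 1 (Rhod) was higher and 0 lower. Tcirg1, a subunit of the proton pump, was at 922 in WT and 727 in homozygous cells, and the adaptor subunit Ap2m1 at 1001 and 1096. Of 16 lipid genes, Apod was higher and Fabp4 lower. Cyp51, of sterol synthesis, was at 102, 126 and 139, with the hemizygous value between the others. Of 15 transporters, 1 (Slc15a2) was higher and 0 lower. Abcb1b, a drug efflux pump active in blood stem cells, was at 24.8, 30.04 and 36.5. None of 22 growth signalling genes passed 2-fold, and their median log2 ratio was 0.11, the highest of the lists.

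**Figure D5:**
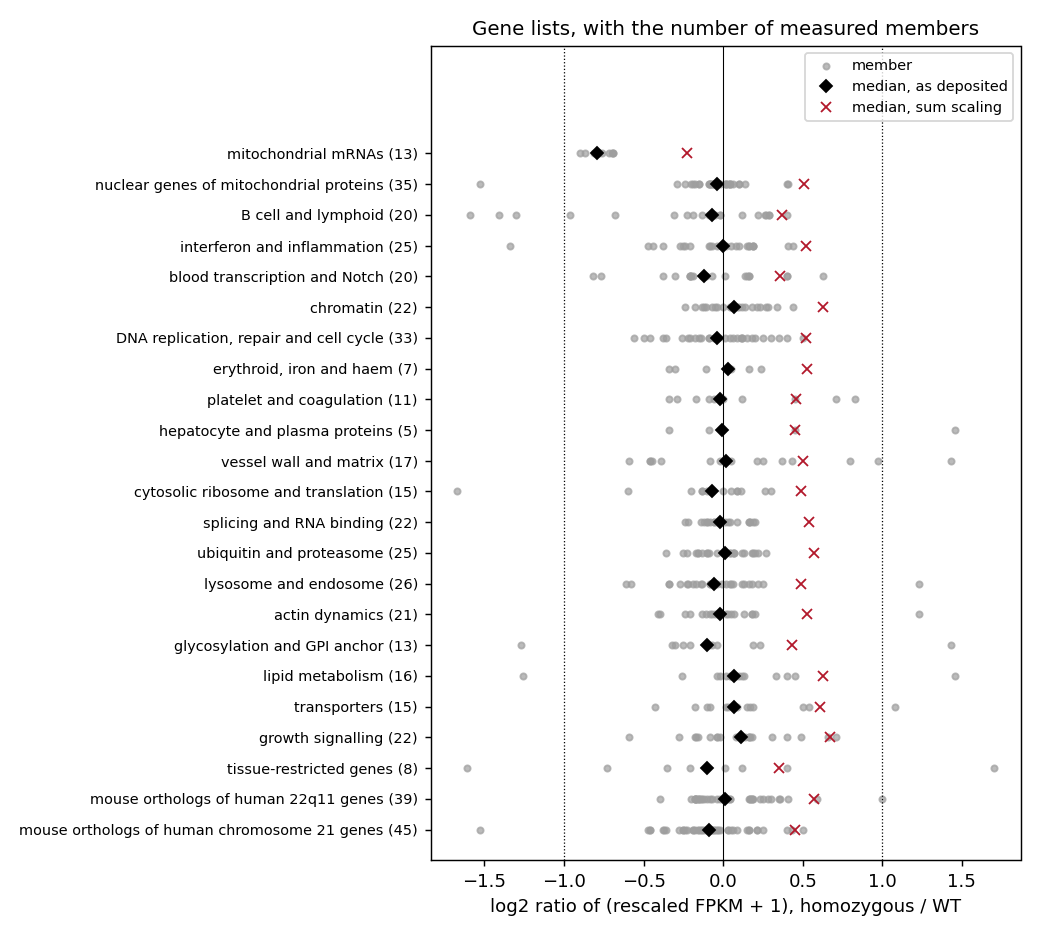
log2 ratio of rescaled FPKM + 1, homozygous to WT (x), for the measured members (grey) of each gene list, with the list median as deposited (black) and under sum scaling (red cross). As deposited, every list but the mitochondrial mRNAs (-0.79) has a median between -0.12 and 0.11.

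None of 7 measured erythroid, iron and haem genes passed 2-fold. Tfrc, the transferrin receptor, was at 1280.3 in WT, 1414 in hemizygous and 1013 in homozygous cells, and the carbonic anhydrase gene Car2 at 2199.9, 2091 and 1786. The 4 erythroid markers summed to 3987, 4012 and 3285. The 6 neutrophil markers summed to 666, 595 and 615, mostly the stefin gene Stfa1, at 332, 330.3 and 313, and its relative BC100530, at 299, 232 and 274. The 10 hepatocyte markers, of which 4 were measured and Fetub and Hrg were at 0, summed to 37.5, 35.8 and 32.9.

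The markers of endothelium and vessel wall summed higher, at 66.4 in WT, 81.6 in hemizygous and 110.4 in homozygous cells, with all 9 measured. Col4a1 and Col4a2, the chains of basement membrane collagen, made up most of that sum, and the other 7 markers together stood at 13.8, 13.6 and 11.2, lowest in the homozygous library. Col4a1 was at 25.5, 31.7 and 45.2 (ratio 1.77, interval 1.22 to 2.61), and Col4a2 at 27.1, 36.4 and 54.1 (1.99). The homozygous library was highest for both. The genes overlap on opposite strands, but of the 50-base stretches of each, 0.0% also occur in another annotated gene. The endothelial junction gene Cldn5 was near 2 in the homozygous library (2.14) and at 1.63 in the WT library, and Cd248, a marker of perivascular cells, was at 3.25 and 2.09. The 3 megakaryocyte markers, Gp5, Gp1bb and Mylk, summed to 25.8, 24.3 and 38.7, with the difference in Gp5. The part of these cell types in the higher values of Efemp2 was not tested. Gas6, a ligand of the TAM receptors listed with coagulation and growth signalling, was at 6.41, 6.84 and 11.1 (1.74, interval 1.25 to 2.42).

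Genes past 2-fold lay mostly on chromosome 16 and were concentrated in low genes. Chromosome 16, with 504 of the 945 measured genes, held 14 of the 20 genes called higher and 14 of the 21 called lower. The segments of chromosomes 9, 17 and 12, with 19, 28 and 14 measured genes, held none. Segment medians of the log2 ratio ran from -0.17 on chromosome 13 to 0.10 on chromosome 12. Of 168 nuclear genes with a mean value under 5, 14 were higher and 9 lower. Of 273 with a mean from 100 to 500, 0 were higher and 2 lower, Igll1 and Vpreb1, and of 86 above 500 none passed in either direction. Among all measured genes 87.7% lay within 1.5-fold, and the quartiles of the log2 ratio ran from -0.21 to 0.12. Mouse orthologs of genes of human chromosome 21, a long block of chromosome 16, had 45 measured members, 0 higher and 1 lower (Mrpl39), and a median of -0.09. Orthologs of human 22q11 genes had 39, with 1 higher (Ccdc116), 0 lower and a median of 0.01. Beside these counts, 2.12% of all measured genes were higher and 2.22% lower.

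Low values were whole multiples of a common unit, as whole fragments give, for 71.0% of 865 values in WT and 71.6% of 887 in the homozygous library. From that unit the depth on the listed genes was about 3030000 fragments in WT, 3020000 in hemizygous and 2330000 in homozygous cells, using the median transcript length of each gene. With the longest transcript it was 5690000, 5950000 and 4830000, so fragments and intervals are approximate. For a transcript of 2000 bases, a value of 1 came from about 7.25 fragments in WT and 6.92 in homozygous cells.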

How the data were processed

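Each library came with a table of FPKM per gene and a status of the estimate, per the file headers. Per the submitters' processing notes, the tools were TopHat2, Bowtie2 and Cufflinks and the build was mm9; neither annotation nor strand setting was given in the sources used here. Deposited FPKM were divided by 1 factor common to all libraries, which leaves plain ratios unchanged. The ratios on value + 1, the counts from them and the minimum value of 1 depend on the size of that factor. Gene types, order and transcript lengths came from GENCODE M21 (GRCm38), in which 95.4% of identifiers were found, so no positions of genes are given on the files' build. Homozygous was compared with WT on log2(value + 1), a scale that understates differences of low genes. Counting intervals (95%, exact binomial) used fragments estimated with a fragment length of 200 bases, and values were called whole within 0.05. Named genes are those with a proper symbol and a value of at least 5 past 2-fold, the mitochondrial mRNAs, up to 12 in each direction next to them by counting interval with a plain ratio beyond 1.5-fold, and, in each list, up to 4 of highest WT value and up to 4 of largest difference. The genes and lists were chosen with earlier results of these data known. Alternatives were 3 scalings, 2 pseudocounts, filters on low values and subsets of genes. Python 3.11.15, pandas 2.3.3 and scipy 1.17.1 were used.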

Additional observations from a re-analysis of the deposited data

How the results depend on the processing

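No paired analysis was possible because each genotype had 1 library, and for the same reason no library could be left out. Counts of genes at least 2-fold higher and lower, 20 and 21, depended on scale and level. They were 61 and 13 with sum scaling that included mitochondrial mRNAs, 1 and 9 with a pseudocount of 5, and 10 and 12 with a minimum value of 5. Protein-coding genes alone gave 10 higher. Chosen after seeing the data, a minimum of 10 estimated fragments gave 7 and 12, and the plain ratio with an interval excluding 1 gave 13 higher. Sum scaling moved the nuclear median from -0.04 to 0.50 and the mitochondrial median from -0.79 to -0.23. Under median-ratio and nuclear-sum scaling and the loss of the last 10 genes before each break, the counts stayed within 1.5 times. They also did under a pseudocount of 0.1, which can only add genes. Dropping the minimum value could not change the counts, since genes under 1 in both libraries cannot pass 2-fold on value + 1. The chromosome 16 segment alone, with 504 of the 945 measured genes, gave 14 and 14 and no mitochondrial value. Counts from such a subset cannot be set against 20 and 21 as a check of stability. Of 15 named genes past 2-fold, sum scaling kept 10, among them the higher ones, which it could not remove. A pseudocount of 5 kept 8. Median-ratio and nuclear-sum scaling kept 14 each, and as both raise homozygous values, neither could remove a higher gene. A pseudocount of 0.1 kept all 15, as it had to, since a smaller pseudocount widens every ratio. None of these 15 changed sign. Depth limits genes with a mean value under 5, which hold 14 of the 20 higher genes.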
